A study of Mus musculus with 8 samples.

Results

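Transcripts of 45 mouse genes that serve glycolysis or the cellular response to hypoxia were followed through mitosis and into G1 in pluripotent stem cells. The genes were taken by symbol from the count table, and the 45 symbols gave 46 of its 54838 gene IDs, since Aldoa has 2. The cells were male mouse induced pluripotent stem cells (iPSCs), which the sample labels call ESC, from 2 clones that served as biological replicates. Their medium held serum, LIF and 2i, a pair of inhibitors of the kinases MEK and GSK3, and irradiated feeders lay beneath them. The 4 groups had 2 libraries each, 8 in all. Mitotic cells had been passaged to gelatin, held in nocodazole, which blocks microtubules, at 200 ng/ml for 6 h, and shaken off the plate. EG1 (early G1) and LG1 (late G1) cells came from the same arrest, were washed free of the drug, plated on gelatin and taken 1 h and 3 h later. Asynchronous cells were cycling cells of the same clones. The labels do not say which replicate number is which clone, so p-values measure only the spread between these samples, and the labels' RNA protocol names asynchronous cells only. Every comparison with Asynchronous cells therefore sets drug, shake-off, plating and cell cycle state together, and these cannot be told apart. Fibroblast markers that feeders could supply differed between these groups too, as given below, and that difference cannot be told apart from the rest either.

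Total counts per library ran from 20410621 to 25615244, and 3 counts were worth 0.116 to 0.152 CPM, a floor that covers counting error only. Levels below are CPM, counts relative to library size, after TMM scaling, which makes libraries comparable. A gene was called at an adjusted p under 0.05 in edgeR's quasi-likelihood test with Benjamini-Hochberg adjustment over the 19101 genes tested, and SE is the standard error of a log2 fold change. All 46 IDs passed the filter on low counts. Replicates were close in EG1 and LG1, with a biological coefficient of variation (the spread between replicates beyond counting) of 0.0506 and 0.0417. They were further apart in Mitotic and Asynchronous cells, at 0.183 and 0.292, and 4 of the genes described here (Kdm3a, Pgk1, Eno1 and Vldlr) differed more than 1.5-fold between the Asynchronous replicates. The fit gave all groups 1 shared estimate of spread, so the Asynchronous libraries also weigh on comparisons that do not contain them. In turn, the close EG1 and LG1 replicates weigh on the comparison of Mitotic with Asynchronous cells. With those 2 groups fitted alone, 35 of the 46 IDs were called, against 41 in the main fit, and the share of all genes called there was not counted.

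Markers of other cells moved with the groups. All 10 pluripotency markers were measured in every group, with Pou5f1 between 1472 and 2121 CPM in the 8 libraries. Of these 10, 6 were higher in Mitotic than in Asynchronous cells, 1 was lower and 3 were not called, with Zfp42 2.37-fold and Esrrb 1.85-fold higher and Tdgf1 2.02-fold lower. Of 24 fibroblast markers that feeder cells could supply, 23 were tested, and 19 were lower and 0 higher in Mitotic than in Asynchronous cells. Their summed level was 1735 to 2096 CPM in Mitotic, 1903 to 1989 in EG1 and 1668 to 1802 in LG1 libraries, against 4169 to 4883 in Asynchronous ones. Without Fn1, Sparc and Ccn2, which were set aside after their values were seen, the sums were 107 to 113, 159 to 164 and 71.1 to 99.4 CPM, against 1831 to 1950. The collagen gene Col1a1 stood at 7.59 and 10.1 CPM in Mitotic libraries, against 509 and 554 in Asynchronous ones, and no fibroblast marker was at 0 in every library. Of 12 macrophage markers 11 were tested, and 9 of them were lower in EG1 than in Mitotic cells, with sums of 42.7 to 48.7 CPM in EG1 against 104 to 120 in Mitotic libraries. Their sums were 47.9 to 50.5 CPM in LG1 and 86.6 to 87.0 in Asynchronous libraries, and 5 were higher in Mitotic than in Asynchronous cells. Of 10 genes of G2 and M phase, Cdc20 and Ccnb2 were higher in Mitotic than in Asynchronous cells, while Top2a, Aurkb, Cdk1, Cenpf and Ccnb1 were lower. The part of feeder or macrophage RNA in the results below was not tested. In bulk RNA, fewer cells of a type and less RNA per cell cannot be told apart.

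Cells sense oxygen through enzymes that hydroxylate the alpha subunits of hypoxia-inducible factor (HIF). With oxygen present, the prolyl hydroxylases of the Egln family mark HIF-1α for destruction by way of VHL. Without it, HIF-1α pairs with ARNT and binds genes at short motifs around CGTG, and its targets include most glycolytic enzymes, glucose transporters and genes of mitochondrial turnover, vessel growth and collagen folding. The HIF-1α protein is controlled largely by its stability, so the level of its mRNA is a separate quantity. Pluripotent cells are known for a high rate of glycolysis also when oxygen is present.

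The first comparison sets arrested against cycling cells. Most of the genes were at a lower level in Mitotic cells. Of the 46 IDs 37 were lower, 4 were higher and 5 were not called. That is 80.4% lower, against 22.4% of all genes tested, and 8.7% higher, against 18.3%. The median log2 fold change was -1.59, against -0.05 over all genes tested, and the median Mitotic level was 33.2% of the Asynchronous one. At least 2-fold lower were 29 of the 46, a class that held 14.8% of all genes tested. Summed over all 46, the level was 11880 and 12009 CPM in Mitotic, 11498 and 11188 in EG1 and 11030 and 11110 in LG1 libraries, against 24764 and 28987 in Asynchronous ones. The fibroblast markers, given above, were also highest in the Asynchronous libraries. The plot of all 8 libraries shows the lower levels as a break between the Asynchronous columns and the other 6.

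**Figure D1:**
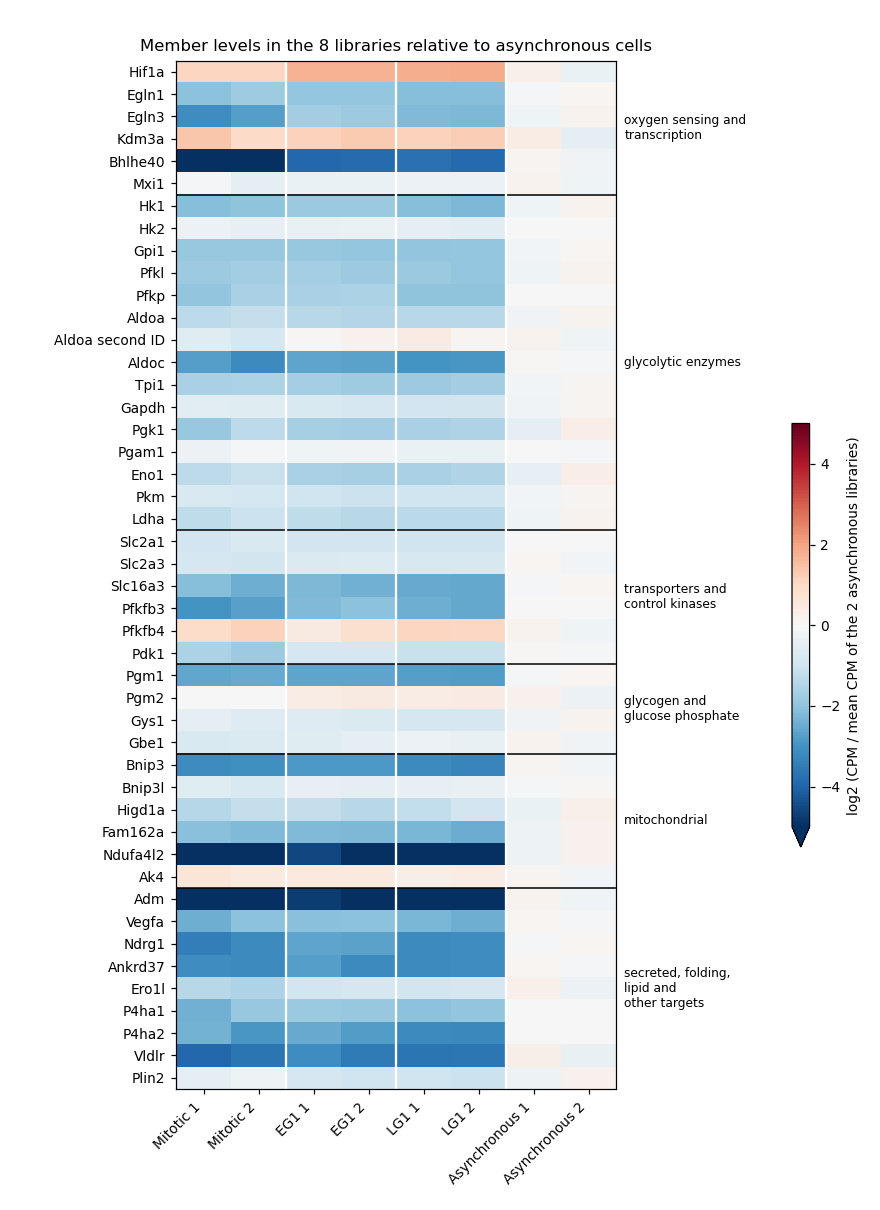
Level of each of the 46 gene IDs (rows, grouped by role) in each of the 8 libraries (columns), as log2 of CPM over the mean of the 2 Asynchronous libraries; blue is lower, red is higher, and the scale ends at 5 on either side. Mitotic, EG1 and LG1 columns are blue in most rows. Hif1a, Kdm3a, Pfkfb4 and, more weakly, Ak4 are red in all 3 of these groups, and Pgm2 and the second ID of Aldoa are pale red in EG1 and LG1.

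Among the genes of oxygen sensing and transcription, Hif1a and Kdm3a were higher in Mitotic cells and Egln1, Egln3 and Bhlhe40 lower. Hif1a (ENSMUSG00000021109, chromosome 12, 73901375 to 73947530, GRCm38), which encodes the oxygen-regulated subunit HIF-1α, had 99.1 and 98.4 CPM in Mitotic, 156 and 157 in EG1 and 166 and 168 in LG1 libraries, against 55.6 and 37.4 in Asynchronous ones. Each of the 6 synchronised libraries was above both Asynchronous ones, and the Mitotic level was 2.12-fold higher (log2 1.08, SE 0.18, adjusted p = 0.00237). Kdm3a (chromosome 6, 71588972 to 71632990), a demethylase of histone H3 lysine 9, had 354 and 265 CPM in Mitotic, 305 and 338 in EG1 and 300 and 320 in LG1 libraries, against 176 and 97.0 in Asynchronous ones. It was 2.27-fold higher in Mitotic cells (log2 1.18, SE 0.26, adjusted p = 0.0086), but without Mitotic replicate 1 it was not called (log2 0.96, adjusted p = 0.0661).

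Egln1 and Egln3, which encode prolyl hydroxylases, were lower. Egln3 (ENSMUSG00000035105, chromosome 12, 54178981 to 54203860) had 14.4 and 18.4 CPM in Mitotic, 37.4 and 35.7 in EG1 and 27.0 and 26.2 in LG1 libraries, against 108 and 142 in Asynchronous ones. Egln1 (chromosome 8, 124908587 to 124949324), the main oxygen sensor of the family, had 32.0 and 37.8, 33.9 and 34.0, and 29.6 and 29.6 CPM in Mitotic, EG1 and LG1 libraries, against 122 and 140 in Asynchronous ones. No synchronised library reached an Asynchronous one for either gene, and the Mitotic levels were 7.59-fold lower for Egln3 and 3.75-fold lower for Egln1 (adjusted p = 5.67e-05 and 9.01e-05). Bhlhe40 (ENSMUSG00000030103, chromosome 6, 108660629 to 108666925), a transcriptional repressor, had 8.43 and 11.1 CPM in Mitotic, 25.5 and 26.5 in EG1 and 29.2 and 25.7 in LG1 libraries, against 425 and 344 in Asynchronous ones. Its Mitotic level was 39.3-fold lower (log2 -5.3, SE 0.2, adjusted p = 1.26e-05), the smallest p among the 46. Mxi1, a partner of MAX that opposes MYC, averaged 36.6 CPM in Mitotic and 43.6 CPM in Asynchronous cells. Its libraries overlapped, and it was not called (adjusted p = 0.28).

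The enzymes of the glycolytic chain were lower at nearly every step. Of the 15 IDs 13 were lower, 0 were higher and 2 were not called, with a median log2 fold change of -1.25. Their sum was 8453 and 8707 CPM in Mitotic, 7821 and 7435 in EG1 and 7571 and 7621 in LG1 libraries, against 17295 and 21861 in Asynchronous ones. Aldoc (chromosome 11, 78322968 to 78327781), one of the aldolases that split fructose bisphosphate, had 20.4 and 15.1 CPM in Mitotic, 22.0 and 21.4 in EG1 and 17.6 and 18.5 in LG1 libraries, against 143 and 133 in Asynchronous ones. Its 7.78-fold lower Mitotic level was the widest gap in the chain (log2 -2.96, SE 0.17, adjusted p = 4.17e-05). Gpi1 (chromosome 7, 34201330 to 34230336), which turns glucose 6-phosphate into fructose 6-phosphate, had 355 and 354 CPM in Mitotic, 356 and 342 in EG1 and 331 and 347 in LG1 libraries, against 1204 and 1412 in Asynchronous ones. Pfkp (chromosome 13, 6579768 to 6648777), a phosphofructokinase of the committed step, had 191 and 238, 238 and 248, and 182 and 183 CPM in the Mitotic, EG1 and LG1 libraries, against 749 and 733 in Asynchronous ones. In both genes the 6 synchronised libraries lay close together and far below the Asynchronous pair, 3.69-fold for Gpi1 and 3.45-fold for Pfkp in the Mitotic comparison (adjusted p = 5.77e-05 and 9.48e-05).

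The other steps differed in size. The hexokinase Hk1 was 4.19-fold lower in Mitotic cells and its relative Hk2 1.28-fold. Hk2 (log2 -0.36, SE 0.11, adjusted p = 0.0305) lost its call when any of the Mitotic, EG1 or LG1 libraries was left out, with values from -0.41 to -0.31 and adjusted p up to 0.132. The phosphofructokinase Pfkl was 3.41-fold lower, the triose isomerase Tpi1 3.05-fold, the phosphoglycerate kinase Pgk1 2.97-fold, the aldolase Aldoa 2.37-fold and the enolase Eno1 2.30-fold. The lactate dehydrogenase Ldha was 2.26-fold lower and the pyruvate kinase Pkm 1.76-fold, both among the most abundant of the set. Gapdh, the glyceraldehyde phosphate dehydrogenase used in many laboratories as a loading control, had 282 and 276 CPM in Mitotic, 246 and 231 in EG1 and 216 and 220 in LG1 libraries, against 372 and 458 in Asynchronous ones. Both Mitotic libraries were below both Asynchronous ones, by 1.49-fold (log2 -0.57, SE 0.13, adjusted p = 0.00942), but without Mitotic replicate 2 the call was lost (log2 -0.56, adjusted p = 0.0527).

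Pgam1, a phosphoglycerate mutase, averaged 62.0 CPM in Mitotic and 70.3 CPM in Asynchronous cells and was not called (adjusted p = 0.271). The second ID of Aldoa (ENSMUSG00000114515, chromosome 7, 126800790 to 126809108, beside the main gene on the same strand) had 1.31 and 1.08 CPM in Mitotic, 2.08 and 2.28 in EG1 and 2.65 and 2.20 in LG1 libraries, against 2.23 and 1.72 in Asynchronous ones. It was not called (adjusted p = 0.0715). Reads of several of these enzymes could belong to near-identical copies elsewhere, and how such reads were counted is not given in the sources used here. Of the 50-base stretches of the longest protein-coding transcript, 82.5% also occur in another annotated gene for Gapdh. The share was 72.2% for Eno1, 68.0% for Pgk1 and 41.5% for Pgam1. At least 25% were shared for 8 of the 46 IDs, the others being Bnip3, Higd1a, Pkm and Gpi1, and 19 IDs shared none.

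Carriers and control kinases split in the same way, with 5 of 6 lower and 1 higher in Mitotic cells. Slc16a3 (chromosome 11, 120948480 to 120960868), the MCT4 carrier that exports lactate, had 109 and 87.3 CPM in Mitotic, 98.8 and 89.9 in EG1 and 83.0 and 79.9 in LG1 libraries, against 439 and 508 in Asynchronous ones. Pfkfb3 (ENSMUSG00000026773, chromosome 2, 11471433 to 11554077), which makes the activator of phosphofructokinase, had 11.9 and 14.4 CPM in Mitotic, 20.4 and 22.5 in EG1 and 17.3 and 15.9 in LG1 libraries, against 95.5 and 92.9 in Asynchronous ones. Pdk1 (ENSMUSG00000006494, chromosome 2, 71873224 to 71903858), a kinase that shuts pyruvate dehydrogenase and so keeps pyruvate out of the mitochondrial cycle, had 38.6 and 32.6, 65.5 and 65.4, and 53.3 and 54.0 CPM in Mitotic, EG1 and LG1 libraries, against 121 and 112 in Asynchronous ones. Every synchronised library of these 3 genes was below both Asynchronous ones, and their Mitotic levels were 4.83-fold, 7.16-fold and 3.28-fold lower for Slc16a3, Pfkfb3 and Pdk1 (adjusted p = 6.27e-05, 3.55e-05 and 0.000103). The glucose transporters Slc2a1 and Slc2a3 were 1.81-fold and 1.88-fold lower. Pfkfb4, the sister of Pfkfb3, went the other way at a low level, with 7.88 and 9.15 CPM in Mitotic, 5.62 and 7.26 in EG1 and 8.66 and 8.44 in LG1 libraries, against 4.70 and 3.55 in Asynchronous ones. The Mitotic level of Pfkfb4 was 2.06-fold higher (adjusted p = 0.00777), and it was not called when those groups were fitted alone (adjusted p = 0.0518).

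Of the genes of glycogen and glucose phosphate, Pgm1 stood out. Pgm1 (chromosome 4, 99929414 to 99987294), the phosphoglucomutase that links glycolysis to glycogen, had 40.6 and 43.1 CPM in Mitotic, 39.3 and 40.0 in EG1 and 36.6 and 35.3 in LG1 libraries, against 230 and 264 in Asynchronous ones. Its Mitotic level was 5.9-fold lower (log2 -2.56, SE 0.13, adjusted p = 2.45e-05). Pgm2, a related enzyme, had 41.1 and 42.3, 55.2 and 58.3, and 55.3 and 56.0 CPM in Mitotic, EG1 and LG1 libraries, against 49.4 and 34.9 in Asynchronous ones, and its Mitotic and Asynchronous libraries overlapped (adjusted p = 0.945). Gys1, the glycogen synthase, had 151 and 132 CPM in Mitotic, 132 and 125 in EG1 and 117 and 118 in LG1 libraries, against 183 and 234 in Asynchronous ones. The branching enzyme Gbe1 had 4.17 and 4.27, 4.58 and 4.98, and 5.75 and 5.49 CPM, against 7.92 and 6.19. Both were lower in Mitotic cells, by 1.47-fold for Gys1 and 1.67-fold for Gbe1 (adjusted p = 0.0168 and 0.021), and both calls were fragile. Gys1 was not called without Mitotic replicate 2 (log2 -0.47, adjusted p = 0.0981), and Gbe1 not without any of 6 libraries, both Mitotic and both EG1 ones, LG1 replicate 2 and Asynchronous replicate 1 (log2 -0.76 to -0.52, adjusted p up to 0.0798).

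Of the 6 mitochondrial genes 5 were lower in Mitotic cells. Ndufa4l2 (chromosome 10, 127514967 to 127517154), a relative of a respiratory chain subunit, had 5.77 and 5.27 CPM in Mitotic, 10.7 and 7.92 in EG1 and 5.56 and 5.25 in LG1 libraries, against 209 and 291 in Asynchronous ones. Bnip3 (chromosome 7, 138890836 to 138909519), a receptor for the removal of mitochondria by autophagy, had 12.1 and 12.5 CPM in Mitotic, 14.5 and 14.6 in EG1 and 11.6 and 10.8 in LG1 libraries, against 116 and 96.0 in Asynchronous ones. These Mitotic levels were 45.2-fold lower for Ndufa4l2 (log2 -5.5, SE 0.24, adjusted p = 1.7e-05) and 8.63-fold lower for Bnip3 (log2 -3.11, SE 0.15, adjusted p = 2.45e-05), and the 6 synchronised libraries stayed at or below 10.7 and 14.6 CPM. Bnip3l, its close relative with a like role, had 69.9 and 63.2, 80.3 and 75.6, and 80.7 and 83.6 CPM in Mitotic, EG1 and LG1 libraries, against 104 and 110 in Asynchronous ones, a 1.61-fold lower Mitotic level (adjusted p = 0.00308). Fam162a, a mitochondrial membrane protein, had 51.6 and 48.2 CPM in Mitotic, 47.1 and 47.0 in EG1 and 44.6 and 39.5 in LG1 libraries, against 185 and 255 in Asynchronous ones, 4.41-fold lower in Mitotic cells. Higd1a, which associates with the respiratory chain, was 2.46-fold lower. The exception was Ak4, an adenylate kinase of the mitochondrial matrix, with 379 and 345 CPM in Mitotic, 344 and 350 in EG1 and 300 and 320 in LG1 libraries, against 270 and 225 in Asynchronous ones. It was 1.46-fold higher in Mitotic cells (log2 0.55, SE 0.13, adjusted p = 0.0112) and not called without Mitotic replicate 1 (log2 0.48, adjusted p = 0.0687).

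Secreted, folding and lipid targets showed the widest gaps as a group, with 8 of 9 lower and a median log2 fold change of -2.6. Ndrg1 (ENSMUSG00000005125, chromosome 15, 66929318 to 66969640), a stress-responsive gene much used as a marker of hypoxia, had 28.0 and 33.6 CPM in Mitotic, 49.3 and 47.9 in EG1 and 33.7 and 35.4 in LG1 libraries, against 290 and 326 in Asynchronous ones. Ankrd37, an ankyrin repeat gene induced by HIF, had 6.19 and 5.91 CPM in Mitotic, 7.93 and 5.87 in EG1 and 5.93 and 6.29 in LG1 libraries, against 57.4 and 49.5 in Asynchronous ones. No synchronised library came near an Asynchronous one, and the Mitotic levels were 9.99-fold lower for Ndrg1 and 8.82-fold lower for Ankrd37 (adjusted p = 1.7e-05 and 5.01e-05). Adm (chromosome 7, 110627661 to 110629820), which encodes the peptide hormone adrenomedullin, had 0.379 and 0.173 CPM in Mitotic, 1.28 and 0.889 in EG1 and 0.912 and 0.235 in LG1 libraries, against 39.8 and 29.9 in Asynchronous ones. Its Mitotic level was 123-fold lower (log2 -6.95, SE 0.51, adjusted p = 9.41e-05), but the Mitotic values were near the floor and the size of the fold is imprecise (log2 -7.61 without Mitotic replicate 1, still called).

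The angiogenic factor Vegfa was 4.70-fold lower in Mitotic cells, the collagen prolyl hydroxylases P4ha1 and P4ha2 were 4.38-fold and 6.07-fold lower, and the lipoprotein receptor Vldlr was 13.8-fold lower. Ero1l, an oxidase that serves disulfide formation in the endoplasmic reticulum, had 46.2 and 41.5 CPM in Mitotic, 62.2 and 67.1 in EG1 and 62.0 and 68.0 in LG1 libraries, against 144 and 98.3 in Asynchronous ones, and was 2.76-fold lower in Mitotic cells. Plin2, a coat protein of lipid droplets, had 45.9 and 54.4 CPM in Mitotic, 36.2 and 32.6 in EG1 and 32.7 and 30.8 in LG1 libraries, against 54.1 and 76.4 in Asynchronous ones. The Mitotic and Asynchronous libraries of Plin2 overlapped and it was not called (adjusted p = 0.132). The fold changes of all members are drawn in the plot of changes against Asynchronous cells, where 34 of the 41 Mitotic calls held under every alternative tried and 7 (Kdm3a, Hk2, Gapdh, Pfkfb4, Gys1, Gbe1 and Ak4) did not.

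**Figure D2:**
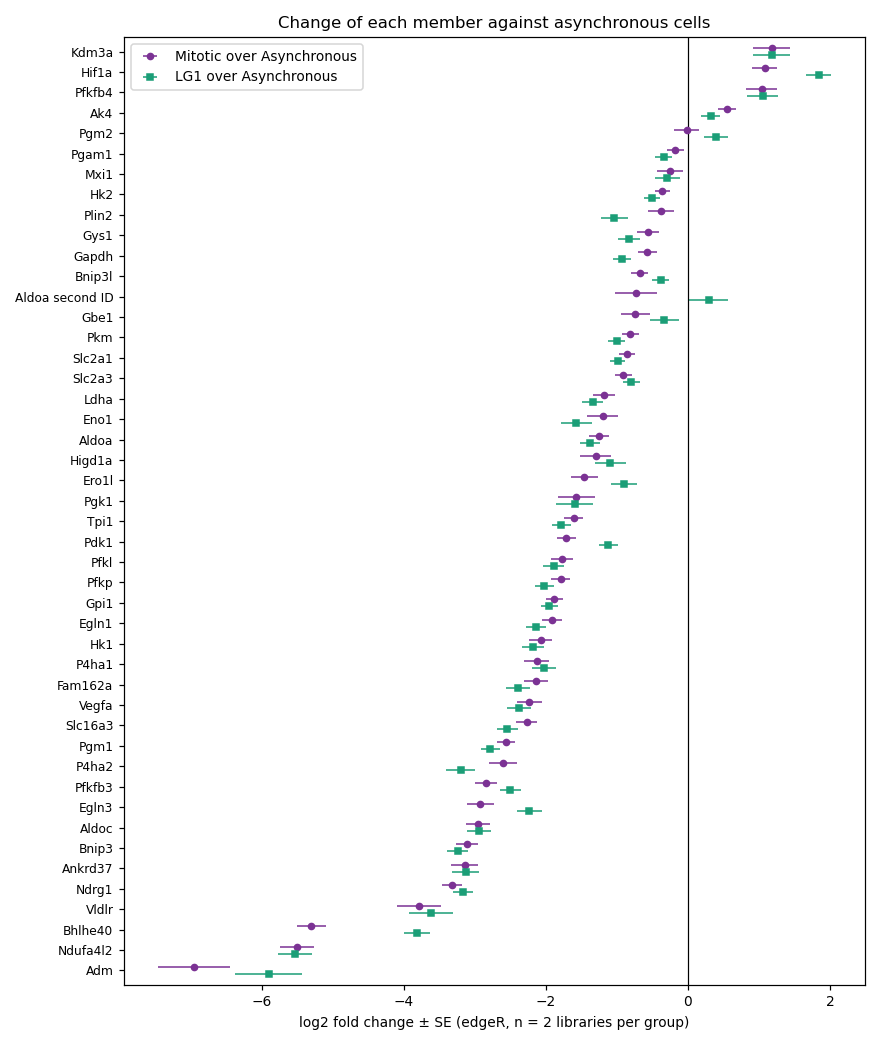
Log2 fold change with SE (horizontal axis) of each of the 46 IDs (rows, ordered by the Mitotic change) for Mitotic over Asynchronous (circles) and LG1 over Asynchronous (squares), 2 libraries per group. Values run from -6.95 (Adm, Mitotic) to 1.84 (Hif1a, LG1), and both comparisons share the Asynchronous libraries.

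Promoter letters are shown for genes that were lower in Mitotic cells and for Hif1a, which was higher, because HIF binds ACGTG and GCGTG. The stretches come from RefSeq promoter windows (GRCm38.p6, from 250 bases before to 50 after each start), lie upstream of the start, and were chosen after their letters were seen. Capitals mark ACGTG on the printed strand or CACGT, which is ACGTG on the other strand. The stretches are Bnip3 at chr7:138909587-138909636 (minus strand), Ldha at chr7:46845644-46845783 (plus), Pgk1 at chrX:106186935-106186984 (plus), Slc16a3 at chr11:120949007-120949066 (plus), Pgm1 at chr4:99929226-99929285 (plus), Egln1 at chr8:124949300-124949349 (minus) and Hif1a at chr12:73907717-73907816 (plus).
Bnip3: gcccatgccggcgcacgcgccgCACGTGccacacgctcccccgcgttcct
Ldha: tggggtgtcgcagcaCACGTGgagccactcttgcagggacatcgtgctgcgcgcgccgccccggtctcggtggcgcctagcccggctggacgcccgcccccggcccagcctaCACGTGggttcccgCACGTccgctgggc
Pgk1: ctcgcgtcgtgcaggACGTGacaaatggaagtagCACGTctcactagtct
Slc16a3: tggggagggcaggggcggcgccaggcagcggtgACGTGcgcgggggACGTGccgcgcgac
Pgm1: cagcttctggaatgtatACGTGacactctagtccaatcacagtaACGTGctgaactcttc
Egln1: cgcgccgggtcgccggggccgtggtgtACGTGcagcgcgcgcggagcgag
Hif1a: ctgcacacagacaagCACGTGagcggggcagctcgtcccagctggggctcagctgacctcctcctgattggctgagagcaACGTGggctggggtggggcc

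These letters were common in the set. Of the 45 symbols 40 had a window in the table, with 59 windows between them, and Bhlhe40, Bnip3l, Ndrg1, Ndufa4l2 and Slc2a3 had none. On either strand, ACGTG was in 52.5% of the 59 windows against 19.6% of all 32851 windows, GCGTG in 54.2% against 32.4%, and CACGTG, which contains ACGTG on both strands, in 10.2% against 7.15%. Base composition differed too, with a median of 23 CG pairs per member window against 7 over all windows, and its part in these shares was not tested. ACGTG was in 24 of the 44 windows of genes lower in Mitotic cells, in 2 of the 9 windows of genes that were higher and in 5 of the 6 windows of those not called. A gene can have several windows, and those can overlap. Counted by gene, ACGTG was in 22 of 32 lower genes, 2 of 4 higher ones and 4 of 4 not called. A match describes letters and is not evidence of binding.

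Release from the arrest for 1 h changed few of the genes. EG1 cells had higher levels of 5 of the 46 than Mitotic cells and a lower level of 0, and 41 were not called. That is 10.9% higher, against 3.21% of all genes tested, and 0% lower, against 1.42%. The 5 were Bhlhe40, Egln3, Pdk1, Pfkfb3 and Ndrg1, whose library values are given above. Bhlhe40 was 2.65-fold higher (log2 1.41, SE 0.18, adjusted p = 0.00721) and Egln3 2.22-fold (log2 1.15, SE 0.18, adjusted p = 0.0149). Pdk1 was 1.84-fold higher (SE 0.13, adjusted p = 0.0117), Pfkfb3 1.63-fold (SE 0.15, adjusted p = 0.0384) and Ndrg1 1.58-fold (SE 0.13, adjusted p = 0.0365). For each, both EG1 libraries were above both Mitotic ones and below both Asynchronous ones.

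None of the glycolytic enzymes was called at 1 h. The range over the 15 IDs was -0.45 to 0.87 on the log2 scale with a median of -0.02, and the lowest value was that of Eno1. Several members outside the chain had unadjusted p under 0.05 without a call, among them Hif1a (1.59-fold, adjusted p = 0.0699), Ndufa4l2 (1.68-fold, adjusted p = 0.0889), Adm (3.81-fold, adjusted p = 0.109) and Ero1l (1.47-fold, adjusted p = 0.124). In all, 11 members were higher and 1 was lower at that unadjusted level, the called members and the second ID of Aldoa included. The share of all genes at that level was not counted, so the split cannot be set against a background. The called set moved with single libraries, and the share of all genes called in those fits was not counted. No member was called without Mitotic replicate 1, EG1 replicate 1 or EG1 replicate 2, and 1 member, Bhlhe40, without Mitotic replicate 2, LG1 replicate 1 or LG1 replicate 2. Without Asynchronous replicate 1 or 2 the count was 15 or 16. Fitted alone, the EG1 and Mitotic groups gave 9 higher and 2 lower members (Eno1 and Plin2), where 8.35% and 5.79% of all genes were called in those directions. The fibroblast markers Col1a1, Postn, Thbs1, Thbs2 and Lox were also higher in EG1 than in Mitotic cells, and 0 of that list were lower. Col1a1 had 21.5 and 17.7 CPM in EG1, against 7.59 and 10.1 in Mitotic libraries.

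**Figure D3:**
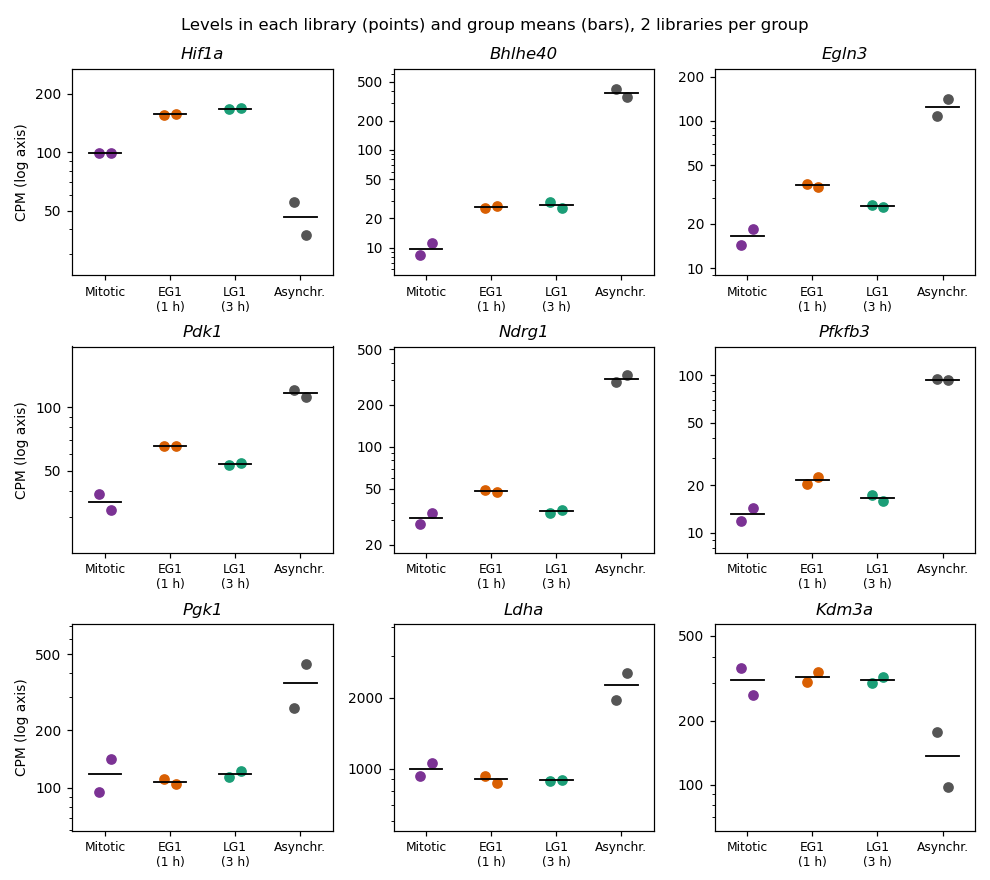
CPM (vertical log axes, each with its own range) of 9 genes in each library (points) and the group means (bars) for Mitotic, EG1 (1 h after release), LG1 (3 h) and Asynchronous cells, 2 libraries per group. Hif1a and Kdm3a lie above their Asynchronous values in the 3 synchronised groups, and the other 7 lie below; Egln3, Pdk1, Ndrg1 and Pfkfb3 are higher in EG1 than in Mitotic or LG1 libraries.

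Between 1 h and 3 h after release no change was called. Of the 46, 0 were higher and 0 lower in LG1 than in EG1 cells, and edgeR called 0% of all genes tested; DESeq2 also called 0 members. At an unadjusted p under 0.05, a level at which the share of all genes was not counted, 0 members were higher and 7 lower. These were Ndufa4l2 (log2 -0.78, SE 0.22), P4ha2 (-0.55), Ndrg1 (-0.49), Egln3 (-0.46), Pfkp (-0.41), Pfkfb3 (-0.37) and Bnip3 (-0.37). When only the EG1 and LG1 libraries were fitted, whose replicates were close, 12 members were lower and 0 higher in LG1 cells, where 4.76% and 3.3% of all genes were called in those directions. The 12 were the 7 above with Hk1, Slc16a3, Pdk1, Ak4 and Vegfa, with log2 fold changes of -0.77 to -0.16. Both EG1 libraries lay above every Mitotic and every LG1 library for 11 of the 46 members (Egln3, Hk1, Aldoc, Slc2a3, Pfkfb3, Pdk1, Bnip3, Ndufa4l2, Ndrg1, P4ha1 and Vldlr), a pattern that 8.27% of all genes tested showed. They lay below all of them for 2 (Aldoa and Pfkfb4), as they did for 8.03% of all genes. Both are descriptions of 6 libraries, with no test.

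At 3 h after release, 4 of the 46 were higher than in Mitotic cells and 0 lower. That is 8.7% higher, against 5.43% of all genes tested, a share not far from the background, and 0% lower, against 4.04%. Of the 23 fibroblast markers tested, 0 were higher and 2 lower in LG1 than in Mitotic cells. Bhlhe40 was 2.80-fold higher in LG1 cells (log2 1.49, SE 0.18, adjusted p = 0.00419), Hif1a 1.69-fold (log2 0.76, SE 0.17, adjusted p = 0.0339), Egln3 1.62-fold (log2 0.7, SE 0.18, adjusted p = 0.0474) and Pdk1 1.51-fold (log2 0.59, SE 0.13, adjusted p = 0.0285). Glycolytic enzymes gave 0 calls of 15, with a median of -0.15. Closest to a call among the rest were the second ID of Aldoa (2.03-fold higher, adjusted p = 0.0587) and Plin2 (1.58-fold lower, adjusted p = 0.0611). These calls too rested on single libraries, and that of Egln3 was also lost with RLE size factors. The share of all genes called without single libraries was not counted. Bhlhe40 alone was called without either Mitotic or either EG1 library, and 0 members were called without either LG1 library. The count was 15 without Asynchronous replicate 1 and 13 without Asynchronous replicate 2.

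LG1 cells were still far from cycling cells. Of the 46, 37 were lower in LG1 than in Asynchronous cells, 3 were higher and 6 were not called. That is 80.4% lower, against 26% of all genes tested, and 6.52% higher, against 22.7%. The median log2 fold change was -1.58, against -0.03 over all genes, and the median LG1 level was 33.5% of the Asynchronous one. Hif1a was 3.59-fold higher (log2 1.84, SE 0.18, adjusted p = 0.000223), Kdm3a 2.27-fold and Pfkfb4 2.07-fold. The folds of the lower genes ran from 1.30 (Bnip3l) to 59.9 (Adm). That of Adm (log2 -5.9) was imprecise, at log2 -7.18 without LG1 replicate 1 and -5.23 without LG1 replicate 2, and it stayed called in both cases. By role, 13 of 15 glycolytic enzymes were lower, 5 of 6 carriers and control kinases, 5 of 6 mitochondrial genes and all 9 secreted, folding and lipid targets. Plin2 was 2.05-fold lower (adjusted p = 0.00277) and Gapdh 1.91-fold (adjusted p = 0.00091). Of the 40 calls 37 held under every alternative. The other 3 were Bnip3l, which was not called without any one of the EG1 or LG1 libraries (adjusted p up to 0.165), Hk2, not called without LG1 replicate 2 (adjusted p = 0.0713), and Ero1l, not called without LG1 replicate 1 (adjusted p = 0.0509). Of the 23 fibroblast markers tested 20 were also lower in LG1 than in Asynchronous cells. The Mitotic and LG1 comparisons share the Asynchronous libraries and are not independent.

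Some genes stood nearer to the Asynchronous level in LG1 than in Mitotic cells, and others stood further away. Over all 46, the median log2 fold change of LG1 over Mitotic was -0.05, against -0.01 over all genes tested. As a share of the Asynchronous mean, Bhlhe40 was at 7.12% in LG1 and 2.54% in Mitotic cells, Egln3 at 21.3% and 13.1%, and Pdk1 at 46.3% and 30.7%, 3 genes that were also called higher in LG1 than in Mitotic cells. Ero1l was at 53.7% in LG1 and 36.3% in Mitotic cells, a difference that was not called (adjusted p = 0.0918). Hif1a was further away in LG1, at 359% of the Asynchronous mean against 212% in Mitotic cells. On the low side, Plin2 was at 48.8% in LG1 and 76.8% in Mitotic cells, Gapdh at 52.5% and 67.2%, and Eno1 at 33.6% and 43.4%. These differences were not called (adjusted p = 0.0611, 0.121 and 0.317). How many members moved each way was not counted. Below 25% of the Asynchronous level were 19 members in LG1 and 17 in Mitotic cells, and the share of all genes below it was not counted.

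Scaled by exon length, the 3 members with the highest counted levels came in the same order in each group. Aldoa led with 731 CPM per kilobase in Mitotic, 642 in EG1 and 665 in LG1, against 1730 in Asynchronous cells. Pkm followed with 517, 443 and 455 CPM per kilobase in Mitotic, EG1 and LG1 cells, against 908 in Asynchronous cells. Ldha came next with 300, 273 and 269 CPM per kilobase, against 680. Of the hexokinases, Hk2 exceeded Hk1 in every group, with 50.9 to 8.33 CPM per kilobase in Mitotic cells, against 65.1 to 34.9 in Asynchronous cells. The glucose transporter Slc2a3 was above Slc2a1, at 185 to 115 CPM per kilobase in Mitotic cells, against 348 to 209 in Asynchronous cells. Lengths are the summed exons of each gene, so isoforms in use could shift these values. Sequence shared with other genes could shift them too, since how such reads were counted is not given. The shared part of 50-base stretches was 13.5% for Aldoa, 34.4% for Pkm and 16.6% for Ldha, against 82.5% for Gapdh. The order between genes is therefore one of counts and may not be that of transcripts.

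Other genes of the pathway gave a mixed picture in the comparison of Mitotic with Asynchronous cells. Of 30 further HIF targets tested 20 were lower, 2 higher and 8 not called (median log2 -1.17); Lox is also on the fibroblast list. The stress gene Ddit4 had 58.4 and 66.9 CPM in Mitotic, against 519 and 546 in Asynchronous libraries, and the lysyl oxidase relative Loxl2 had 4.51 and 4.10, against 87.1 and 75.3. Both were lower (log2 -3.09 and -4.24, adjusted p = 1.8e-05 and 1.7e-05). A list of HIF subunits and the machinery that hydroxylates and degrades them was divided, with 3 of 13 higher, 3 lower and 7 not called (median log2 0.01). Higher were Epas1, Eloc and Ube2d1, and lower were Hif3a, Vhl and Os9. Vhl had 29 and 31.3 CPM in Mitotic, against 46.7 and 57 in Asynchronous libraries (log2 -0.78, adjusted p = 0.00411). Egln2, the remaining prolyl hydroxylase of the family, had 88.8 and 87.0 CPM in Mitotic, against 62.8 and 85.4 in Asynchronous libraries, and was not called (log2 0.25, adjusted p = 0.232). Hif1an, the asparaginyl hydroxylase that blocks HIF activity, was not called either (log2 0.01, adjusted p = 0.98). Epas1, which encodes HIF-2α, had 155 and 137 CPM in Mitotic, against 58.1 and 47.4 in Asynchronous libraries, and was higher (log2 1.47, adjusted p = 0.000253). Hif3a, another alpha subunit, had 7.08 and 4.14 CPM in Mitotic, against 31.5 and 31.7 in Asynchronous libraries, and was lower (log2 -2.49, adjusted p = 0.000412).

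Neighbouring routes of carbon were counted in the same way. Of 15 other glycolytic isozymes, carriers and related genes tested 8 were lower, 1 higher and 6 not called (median log2 -0.88). The enolase Eno2 had 4.85 and 4.53 CPM in Mitotic, against 31.1 and 34.0 in Asynchronous libraries, and was lower (log2 -2.79, adjusted p = 8.58e-05). The mutase Pgam2 had 3.08 and 2.63 CPM in Mitotic, against 10.3 and 10.5 in Asynchronous libraries, and was also lower (log2 -1.86, adjusted p = 0.000568). In the pentose phosphate pathway 3 of 9 were lower, 1 higher and 5 not called (median log2 -0.33). Pgls, its lactonase, had 49.9 and 48.2 CPM in Mitotic, against 113 and 179 in Asynchronous libraries, and was lower (log2 -1.57, adjusted p = 0.00103). Rpe, its epimerase, had 71.0 and 78.4 CPM in Mitotic, against 51.4 and 41.1 in Asynchronous libraries, and was higher (log2 0.69, adjusted p = 0.00592). Of 26 genes of pyruvate entry and the TCA cycle 5 were higher, 3 lower and 18 not called (median log2 0.1). Pdha1, a subunit of pyruvate dehydrogenase, had 354 and 421 CPM in Mitotic, against 189 and 248 in Asynchronous libraries, and was higher (log2 0.83, adjusted p = 0.00403). Pdk4, a kinase that shuts that enzyme as Pdk1 does, had 1.69 and 1.77 CPM in Mitotic, against 9.99 and 5.02 in Asynchronous libraries, and was lower (log2 -2.12, adjusted p = 0.00203). The shares of all genes tested that were lower and higher were 22.4% and 18.3%. The plot of these lists sets them beside the members and the cell markers.

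**Figure D4:**
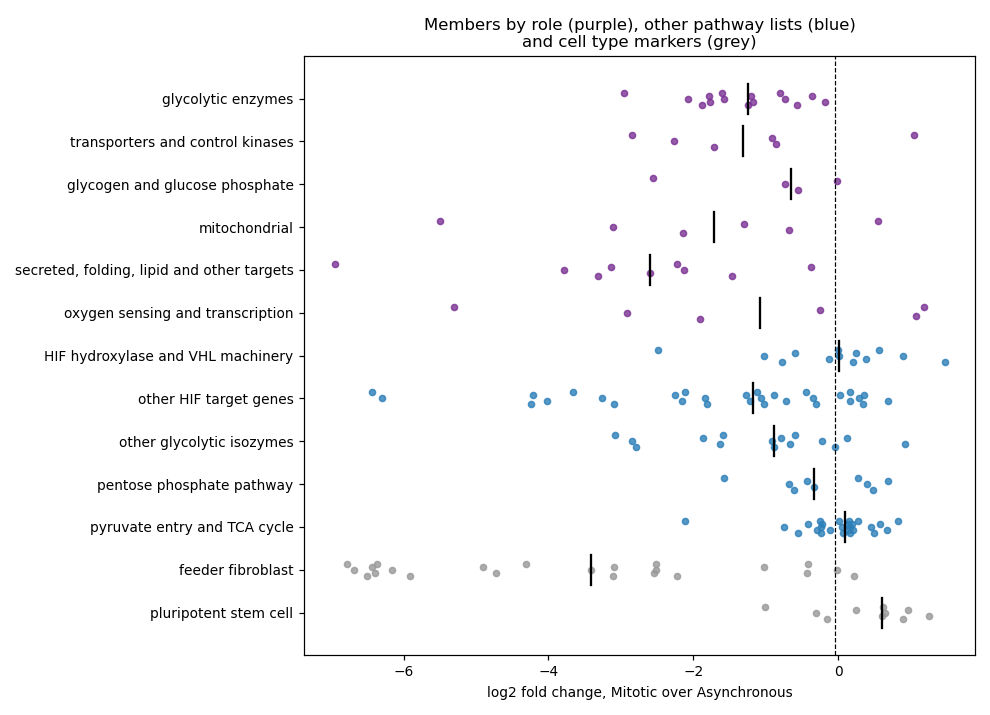
Log2 fold change, Mitotic over Asynchronous (horizontal axis), of each tested gene (points) in the 6 role groups of the members (purple), 5 other pathway lists (blue) and 2 lists of cell markers (grey); black bars are list medians and the dashed line is the median of all genes tested, -0.05. Medians run from -3.41 for fibroblast markers to 0.61 for pluripotency markers, with TCA cycle genes at 0.1.

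Some of these other genes changed between arrest and late G1. In LG1 against Mitotic cells, 3 of 30 further HIF targets and 3 of 15 other isozymes, carriers and related genes were higher. So were 1 gene of 9 in the pentose phosphate pathway and 1 of 26 in pyruvate entry and the TCA cycle. In each of these lists 0 were lower. Of the 13 HIF subunits and machinery genes 0 were higher and 1 lower. Of all genes tested 5.43% were higher and 4.04% lower in that comparison. The chemokine receptor Cxcr4 was higher (log2 1.69, adjusted p = 0.015), with 3.28 and 2.96 CPM in LG1 against 0.885 and 1.04 in Mitotic libraries, and so was Ddit4 (log2 0.55, adjusted p = 0.0359). The lactate and pyruvate carrier Slc16a1 (MCT1) had 245 and 252 CPM in LG1, against 157 and 163 in Mitotic libraries, and was higher (log2 0.64, adjusted p = 0.0122). Pfkfb2, another gene of the Pfkfb family, had 7.21 and 6.43 CPM in LG1, against 2.87 and 1.99 in Mitotic libraries, and was higher (log2 1.49, adjusted p = 0.0301). The phosphatase Pdp1, which reopens pyruvate dehydrogenase, had 11.8 and 12.9 CPM in LG1, against 5.65 and 4.71 in Mitotic libraries, and was higher (log2 1.25, adjusted p = 0.017), and Pdk4 was not called (log2 1.12, adjusted p = 0.0741). Rpia, a ribose phosphate isomerase, had 18.4 and 18.8 CPM in LG1, against 13.0 and 9.37 in Mitotic libraries, and was higher (log2 0.73, adjusted p = 0.0422), while Rpe was not called (log2 0.27, adjusted p = 0.246). Egln2 had 56.8 and 56.0 CPM in LG1, against 88.8 and 87.0 in Mitotic libraries, and was lower (log2 -0.64, adjusted p = 0.0409), and the ubiquitin conjugating enzyme gene Ube2d1 was not called (log2 -0.58, adjusted p = 0.0505).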

How the data were processed

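Per the labels' protocols, libraries were made from poly(A) RNA with a stranded kit and read from one end over 50 bases. The submitters' processing notes name TopHat2, SAMtools, HTSeq and build mm10 without versions. The strand setting of the counting is not given in the sources used here, so values of the 18 member IDs that share exon bases with a gene on the opposite strand, and of the 2 that do so on the same strand (Hif1a and Pkm), are uncertain. The authors deposited raw counts per Ensembl gene for 54838 genes and 8 libraries. GENCODE M21 gave symbols for 54809 IDs (99.9%). Counts were tested in R 4.3.3 with edgeR 4.0.16 (filterByExpr with minimum count 10, TMM, robust quasi-likelihood fit of all 8 libraries in 4 groups, 4 residual degrees of freedom, no replicate block, two-sided, Benjamini-Hochberg over 19101 genes). DESeq2 1.42.0 and 15 other settings were alternatives. Coordinates are 1-based. The members and lists were chosen with earlier results of these data known. Library values are given for the 3 members of each role group with the smallest p in Mitotic over Asynchronous, the 2 with the smallest p in LG1 over Mitotic, and members called against the majority. In each pathway list the 2 genes with the smallest p in each of those comparisons are named. Hif1an, Vhl, Eloc, Os9, Zfp42, Esrrb, Tdgf1 and, in the first comparison, Egln2 and Ube2d1 were named after their values were seen.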

Additional observations from a re-analysis of the deposited data

How the results depend on the processing

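Counts of members called against Asynchronous cells moved little: 41 for Mitotic cells (35 to 44 over 16 alternatives) and 40 for LG1 cells (38 to 43). Comparisons within the synchronised groups moved more. The share of all genes called was counted only for the main fit and, in EG1 over Mitotic and LG1 over EG1, for the fit of those groups alone. For EG1 over Mitotic, 3.21% of all genes were higher and 1.42% lower in the main fit, against 8.35% and 5.79% in the fit alone. Where no such share was counted, a member count cannot be set against that of all genes. For EG1 over Mitotic (5 called) the count was 8 with DESeq2, 11 without the filter, 11 in the fit of those groups alone, 19 with a model term that sets Mitotic replicate 1 and Asynchronous replicate 1 apart, 24 without those 2 libraries, and 0 to 16 when single libraries were left out. For LG1 over EG1 (0 called) it was 1 without the filter, 12 in the fit alone and 11 without those 2 libraries, and 0 under all other alternatives. For LG1 over Mitotic (4 called) it was 7 without the filter, 10 in the fit alone, 16 with the term, 23 without those 2 libraries, and 0 to 15 when single libraries were left out. The sign of one member turned past the threshold: Pgm2 in Mitotic over Asynchronous had log2 0.28 (adjusted p = 0.0211) without those 2 libraries, against -0.02. The cause was not tested. Leaving out a library can leave a group with 1, which is assumed to vary like the others.

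With the replicate number as a block, the counts were 41, 6, 0, 4 and 40 in the order Mitotic over Asynchronous, EG1 over Mitotic, LG1 over EG1, LG1 over Mitotic and LG1 over Asynchronous. Deviations from the group means of same-numbered libraries were correlated over 10030 genes, which are not independent. The correlation was 0.64 between Mitotic and Asynchronous and -0.445 between EG1 and Asynchronous. In the other 4 pairs of groups it lay between -0.187 and 0.0837. The labels do not say which number is which clone, so the main fit did not treat the numbers as pairs. What same-numbered Mitotic and Asynchronous libraries share is therefore not modelled there.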
